A study of Mus musculus with 2 samples.

Results

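Sequencing of RNA from colonic regulatory T cells (Treg cells, the suppressive CD4 lineage defined by the transcription factor Foxp3), taken from the mouse lamina propria, also returned reads from genes of blood vessels, lymphatics, fibroblasts and smooth muscle. The 34 genes described here are a list of endothelial, fibroblast, matrix and muscle genes matched by symbol. All 34 were found once each among the 55246 loci of the deposited table. They were taken as 10 endothelial genes, 19 fibroblast and matrix genes and 5 smooth muscle genes. The study compared 2 genotypes, wild type (WT) and Exon2KO, in which Foxp3 lacks exon 2. Both groups are labelled as Treg cells of the colon lamina propria of female mice, with 1 library of each genotype. The age of the mice, the cell sort, any pooling of animals and the strand setting of the libraries are not given in the sources used here. Without replicates the spread between animals of a genotype is unknown, so each interval below covers counting error in these libraries alone and no difference is a test of the genotype. No molecular identifiers are named in the labels, so reads need not stem from independent molecules.

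Blood endothelial cells line vessels. They are held together by VE-cadherin (Cdh5) and PECAM1, respond to vascular endothelial growth factors through Flt1 and Kdr and to angiopoietins through Tek, and store von Willebrand factor. Lymphatic endothelial cells are specified by the transcription factor Prox1 and carry the hyaluronan receptor Lyve1. Fibroblasts deposit fibrillar collagens and small proteoglycans, vessel and muscle cells rest on basement membranes of type IV collagen and laminin, and the smooth muscle of the gut wall contracts through dedicated actin and myosin isoforms.

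The libraries held 16281133 (WT) and 15412425 (Exon2KO) reads assigned to genes. Of the Treg cell genes, Foxp3 stood at 445 CPM (counts scaled to a library of fixed size) in WT and 1310 CPM in Exon2KO, Ctla4 at 5056 and 8270 CPM, and Il2ra at 189 and 148 CPM, while Ikzf2 stood at 540 and 27.5 CPM. The 34 genes together took 5815 reads in WT and 6516 in Exon2KO, or 0.0357% and 0.0423% of all reads. Vim, Thy1 and Pecam1, which leukocytes also express, supplied 81.5% of these reads in WT and 84.5% in Exon2KO. The other 31 genes summed to 1077 reads in WT and 1011 in Exon2KO, or 68.6 and 63.2 CPM. Their summed ratio was 0.921 (95% interval 0.845 to 1.005), so a difference of the sum was not detectable at this depth. In bulk RNA, fewer cells of a type and less RNA per cell cannot be told apart.

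**Figure D1:**
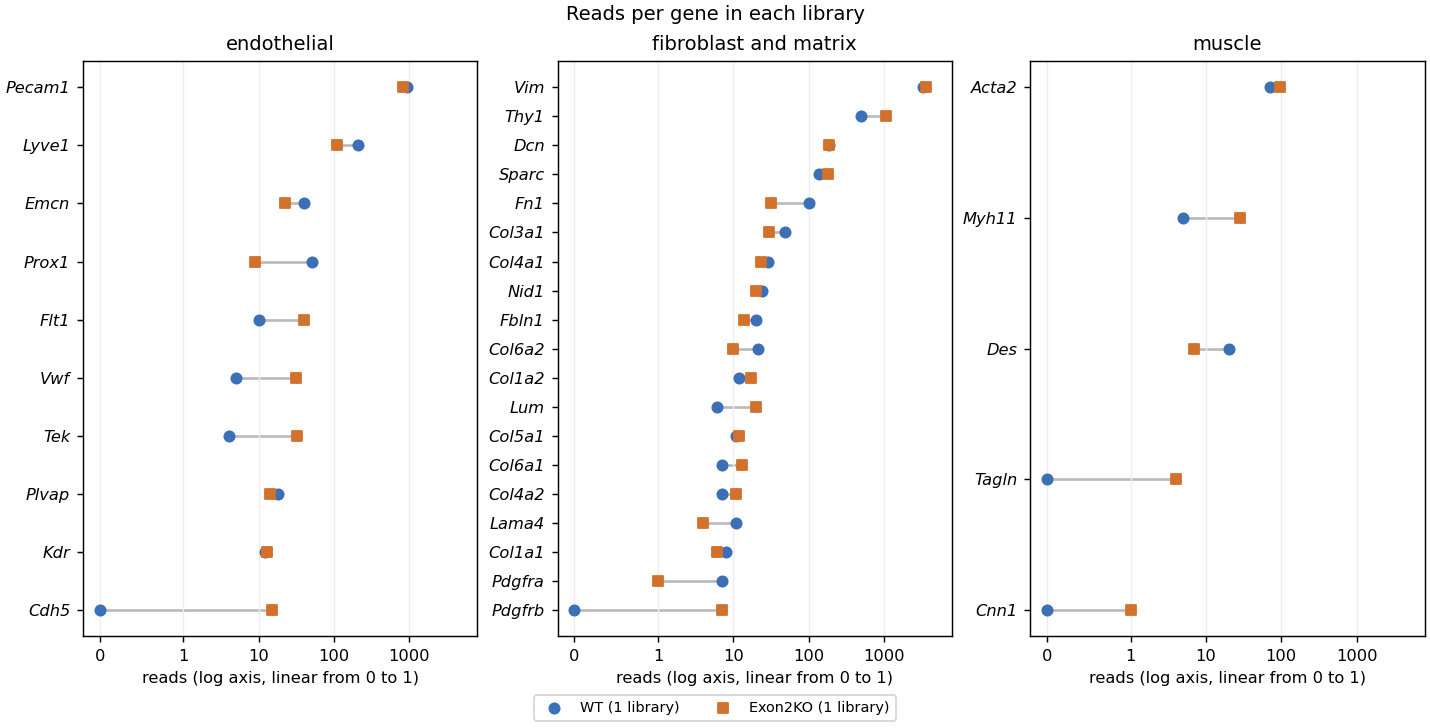
Reads of each of the 34 genes in the WT library (blue circles) and the Exon2KO library (orange squares), on a log axis that is linear from 0 to 1 read. Most genes sit below 100 reads in both libraries, and Cdh5, Pdgfrb, Tagln and Cnn1 had 0 reads in WT.

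Genes whose reads in both libraries summed to 10 or more were compared by an exact binomial test of their reads, adjusted over all 17363 such genes, and were called at an adjusted p below 0.05 together with at least a 2-fold ratio. Of the 34 genes, 30 reached this read minimum, and 7 were called higher and 3 lower in Exon2KO. Over all genes tested, 7.20% were called higher and 6.61% lower. The median log2 ratio of the 30 genes was 0.04, beside 0.0035 over all genes tested. Most of the list is thinly covered: 22 of the 30 tested genes had at most 100 reads over both libraries, and 6 of these were called higher and 2 lower. Among all tested genes with at most 100 reads, 13.0% were called higher and 10.3% lower. When edgeR's exact test was given a relative spread between samples (the biological coefficient of variation, BCV) of 0.2, Thy1, Lum and Des lost their call and the other 7 kept it, beside 3.33% of all tested genes called higher and 3.09% lower. With a BCV of 0.4 none of the 10 was called, beside 0.495% and 0.449%.

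Blood vessel genes held 4 of the 7 higher calls. Cdh5, the adhesion molecule of endothelial junctions, had 0 reads in WT and 15 in Exon2KO, at least 4.91-fold higher when WT is set to 3 reads, with a lower 95% limit of 3.52 on the ratio of the reads. Tek, the angiopoietin receptor, had 4 reads in WT and 32 in Exon2KO, or 0.255 and 2.00 CPM, a ratio of 7.85 (95% interval 2.79 to 30.6). Vwf, which encodes von Willebrand factor, had 5 and 31 reads, a ratio of 6.09 (2.35 to 20.0). Flt1, a receptor for vascular endothelial growth factor, had 10 and 40 reads, a ratio of 3.93 (1.93 to 8.81). On build mm10 these genes lie as deposited: Cdh5 (ENSMUSG00000031871, chromosome 8, 104101625 to 104144511, plus strand), Tek (ENSMUSG00000006386, chromosome 4, 94739289 to 94874976, plus strand), Vwf (ENSMUSG00000001930, chromosome 6, 125546774 to 125686679, plus strand) and Flt1 (ENSMUSG00000029648, chromosome 5, 147561604 to 147726011, minus strand). In each of these 4 genes the Exon2KO library stood above the WT library by more than counting error.

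The other 4 blood vessel genes were not called. Kdr, the main signalling receptor for vascular endothelial growth factor, had 12 reads in WT and 13 in Exon2KO, giving a ratio of 1.06 whose interval (0.447 to 2.55) includes changes of more than 2-fold either way. Plvap, which forms the diaphragms of fenestrated capillaries, had 18 and 14 reads (0.764, 0.351 to 1.62). Emcn, a sialomucin of capillaries and veins, had 40 and 22 reads (0.540, 0.306 to 0.931). Pecam1, an adhesion molecule of endothelium and of many leukocytes, had 917 and 834 reads, a ratio of 0.893 (0.812 to 0.982). It took most of the blood vessel reads, and the sum of all 8 genes had a ratio of 0.977 (0.894 to 1.07). Without Pecam1 the other 7 genes summed to 89 reads in WT and to 167 in Exon2KO, a ratio of 1.84 (1.42 to 2.41).

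Lymphatic genes lay on the other side. Prox1 (ENSMUSG00000010175, chromosome 1, 190118035 to 190170714, minus strand), the lymphatic transcription factor, had 51 reads in WT and 9 in Exon2KO, or 3.25 and 0.563 CPM, a ratio of 0.173 (0.0750 to 0.355), and was called lower. Lyve1 had 208 and 109 reads, or 13.3 and 6.82 CPM. Its ratio of 0.514 (0.404 to 0.652) had a log2 value of -0.95, just short of the 2-fold threshold. Summed, both lymphatic genes went from 259 to 118 reads, a ratio of 0.447 (0.357 to 0.558). Lyve1 is also made by some tissue macrophages. The 11 macrophage and monocyte genes of a separate list held 48.8 CPM in WT and 56.4 CPM in Exon2KO. In that list 0 of 8 tested genes were called, beside 13.8% called either way over all genes tested. Of its defining markers, Adgre1 had 1 and 2 reads and Mrc1 0 and 7. Their part in the Lyve1 difference was not tested.

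Upstream sequences are shown here for the 5 of 10 endothelial genes that the RefSeq promoter table (build GRCm38.p6) holds, as the 250 bases before each start. Cdh5 and Vwf, both called higher, and Lyve1 are not among them. Capitals mark AGGAAG on either strand (CTTCCT on the reverse), a sequence with the GGAA core that ETS factors of endothelial cells such as Erg bind.
Flt1, chr5:147726012-147726261, minus strand: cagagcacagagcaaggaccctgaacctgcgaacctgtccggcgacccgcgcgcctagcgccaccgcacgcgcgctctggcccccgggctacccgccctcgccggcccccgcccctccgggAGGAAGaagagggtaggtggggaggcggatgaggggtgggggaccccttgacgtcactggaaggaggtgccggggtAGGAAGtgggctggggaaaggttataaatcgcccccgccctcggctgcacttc
Tek, chr4:94739039-94739288, plus strand: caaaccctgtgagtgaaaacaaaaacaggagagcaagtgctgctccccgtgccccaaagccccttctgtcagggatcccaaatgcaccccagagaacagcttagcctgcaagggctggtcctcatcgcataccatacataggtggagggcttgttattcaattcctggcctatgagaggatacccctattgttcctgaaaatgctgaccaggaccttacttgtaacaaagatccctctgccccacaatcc
Kdr, chr5:75978456-75978705, minus strand: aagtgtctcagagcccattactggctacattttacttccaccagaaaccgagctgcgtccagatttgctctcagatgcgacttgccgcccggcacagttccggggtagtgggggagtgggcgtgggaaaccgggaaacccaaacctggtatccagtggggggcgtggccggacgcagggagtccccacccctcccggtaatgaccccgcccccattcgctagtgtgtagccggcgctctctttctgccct
Emcn, chr3:137340828-137341077, plus strand: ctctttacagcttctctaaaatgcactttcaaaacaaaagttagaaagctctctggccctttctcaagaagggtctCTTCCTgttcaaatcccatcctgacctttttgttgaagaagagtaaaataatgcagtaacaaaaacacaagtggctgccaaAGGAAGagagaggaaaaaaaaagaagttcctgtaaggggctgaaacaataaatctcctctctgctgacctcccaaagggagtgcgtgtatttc
Prox1, chr1:190170828-190171077, minus strand: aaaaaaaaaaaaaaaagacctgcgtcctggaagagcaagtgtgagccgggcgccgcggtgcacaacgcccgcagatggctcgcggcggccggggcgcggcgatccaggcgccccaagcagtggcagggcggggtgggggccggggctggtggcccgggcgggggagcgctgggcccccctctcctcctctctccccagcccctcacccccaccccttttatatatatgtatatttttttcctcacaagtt
The window of Flt1 held 2 matches, the first of them 129 bases before the start, and that of Emcn also held 2. Those of Kdr, Tek and Prox1 held none. Of all 32851 windows of this length, 29.5% held at least 1 match. Flt1, with 2 matches, was called higher and Emcn, also with 2, was not called, while Tek was called higher with none. Prox1 has a second listed start, and the window nearer to the deposited gene start, 113 bases away from it, is shown.

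**Figure D2:**
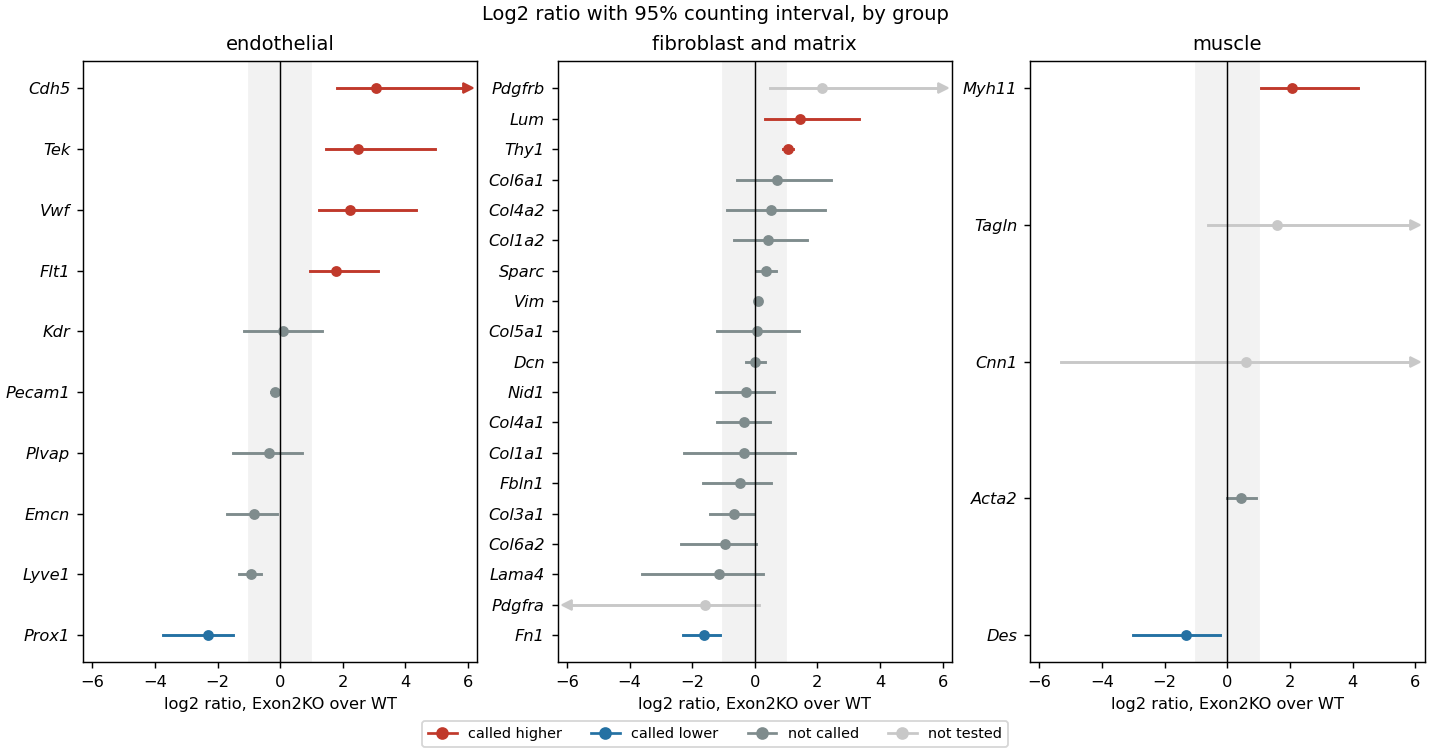
Log2 ratio of Exon2KO over WT (x axis, prior count of 2) for the 34 genes with 95% Clopper-Pearson counting intervals. Arrowheads mark limits beyond the axis or without an end, the grey band marks less than a 2-fold ratio, and colours mark the call. The points of Cdh5, Tek, Vwf and Flt1 stand above the band, and Prox1 and Fn1 stand below it with their whole interval.

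The members alone are few, so further endothelial and lymphatic vessel genes were set beside them. These lists were also chosen with earlier results of these data known, so they are no independent support. The endothelial list holds general endothelial genes and not only those of blood vessels. Of 18 further endothelial genes, 17 had enough reads, and 8 of these were called higher and 1 lower. Over all genes tested, 7.20% were called higher and 6.61% lower, and 13.0% and 10.3% of those with at most 100 reads. The median log2 ratio of this list was 0.99, against 0.0035 over all genes tested. Esam, a junction molecule, had 15 reads in WT and 98 in Exon2KO (log2 ratio 2.53, 1.89 to 3.57). Eng, a co-receptor for TGF-beta family ligands, had 7 and 45 reads (2.36, 1.498 to 4.05). Cldn5, the tight junction claudin of endothelium, had 33 and 104 reads (1.57, 1.05 to 2.24). Mmrn2, Podxl, Ramp2, Ptprb and Sox17 were called higher too, with log2 ratios of 2.37, 1.52, 1.51, 1.40 and 1.98, of which Ramp2, Ptprb and Sox17 were no longer called at a BCV of 0.2. Egfl7, a secreted endothelial factor, had 93 and 166 reads and was not called (0.80, 0.43 to 1.19). Calcrl, the receptor for adrenomedullin and calcitonin gene-related peptide, was called lower, with 130 and 46 reads (-1.49, -2.04 to -1.03).

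All 5 further lymphatic vessel genes had a log2 ratio below 0, with a median of -0.77. Of these, 2 were called lower, beside 6.61% of all genes tested. Mmrn1 had 121 reads in WT and 58 in Exon2KO (-1.06, -1.57 to -0.62). Flt4, the lymphatic receptor for vascular endothelial growth factor C, had 33 and 14 reads (-1.15, -2.28 to -0.32). A BCV of 0.2 ended both calls. Ccl21a, a chemokine that guides cells to lymphatics, had 92 and 54 reads (-0.77, -1.31 to -0.30) and was not called. Its symbol is on more than one locus with closely related copies, so this count, from the locus with the most reads, is uncertain.

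A ratio of ratios, in which the library scaling cancels, set blood vessel or general endothelial genes against lymphatic genes. The Exon2KO over WT ratio of the 7 blood vessel members without Pecam1 was 4.11 times that of the lymphatic members (95% conditional exact interval 2.90 to 5.85). With Pecam1 it was 2.18 times (1.72 to 2.79). For the further lists, general endothelial over lymphatic genes, it was 3.20 times (2.58 to 3.98). The 3 receptors of the vascular endothelial growth factor family, compared after their values were seen, were also unequal: the ratio of Flt1 was 3.62 times that of Kdr (1.14 to 12.0) and 9.17 times that of Flt4 (3.40 to 26.8). Tek was set against its relative Tie1 in the same way, also after the values were seen, and its ratio was 8.13 times that of Tie1 (2.37 to 36.4). These intervals compare the reads of the libraries and carry no spread between animals.

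**Figure D3:**
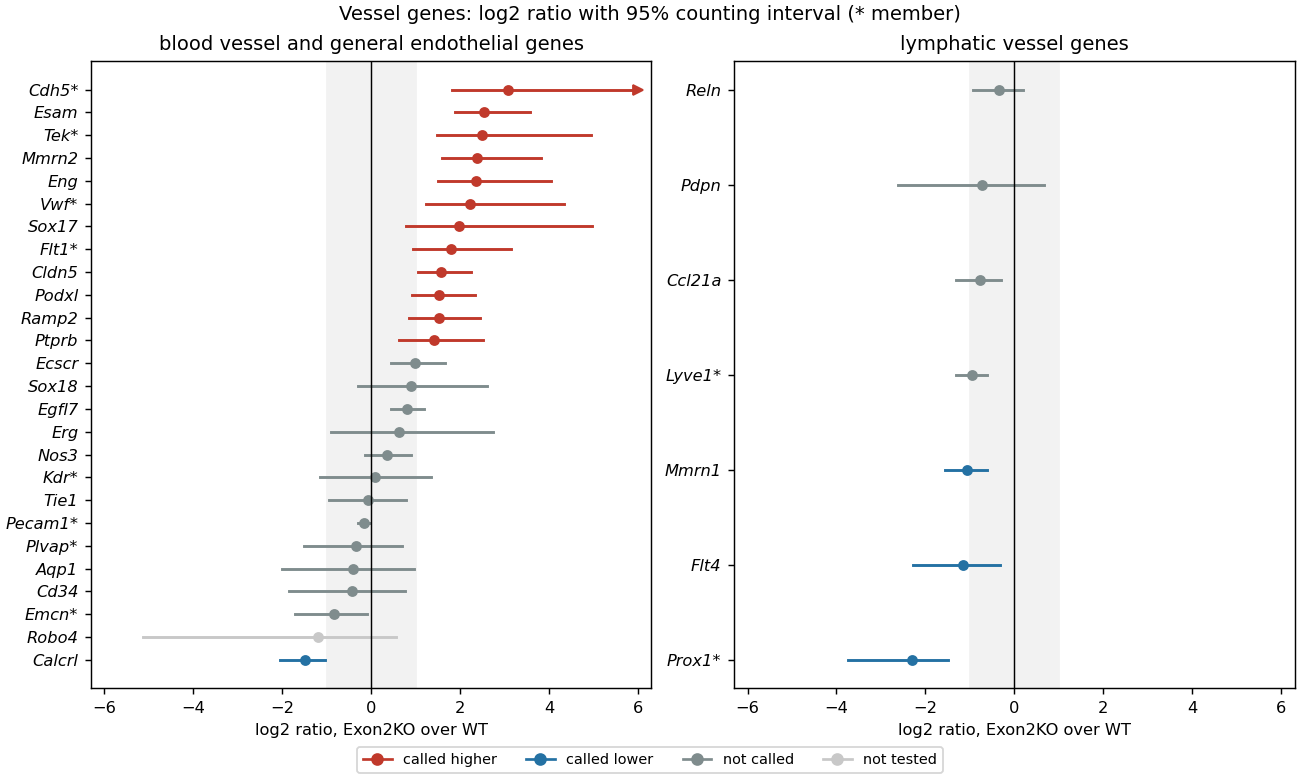
Log2 ratio of Exon2KO over WT with 95% counting intervals for blood vessel and general endothelial genes (left) and lymphatic vessel genes (right), with an asterisk on the listed members. On the left 12 genes were called higher and 1 lower, and on the right 3 were called lower and all 7 lie below 0.

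Fibroblast and matrix genes gave 2 higher calls and 1 lower call among 17 tested genes, and 1 higher and 1 lower among 15 without Thy1 and Vim. Over all genes tested the shares were 7.20% higher and 6.61% lower, and 13.0% and 10.3% of those with at most 100 reads. The summed reads of the 17 genes other than Thy1 and Vim were 634 in WT and 589 in Exon2KO, a ratio of 0.912 (0.814 to 1.02). Dcn, which encodes the small proteoglycan decorin, had 184 reads in WT and 189 in Exon2KO, or 11.7 and 11.8 CPM, a ratio of 1.01 (0.819 to 1.24). Lum, which encodes the related proteoglycan lumican and lies next to Dcn on chromosome 10 (97565128 to 97572703, against 97479609 to 97518143 for Dcn), had 6 and 20 reads, a ratio of 3.27 (1.27 to 9.96), and was called higher. The ratio of Dcn was 0.309 times that of Lum (0.0992 to 0.821), a pair chosen after the values were seen.

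None of the 4 fibrillar collagen genes was called. Col3a1, the collagen of pliable connective tissue, had 48 reads in WT and 30 in Exon2KO (ratio 0.614, 0.375 to 0.988). The genes of type I collagen, Col1a1 and Col1a2, had 8 and 12 reads in WT and 6 and 17 in Exon2KO, and Col5a1, a collagen that helps to start fibrils, had 11 and 12. These counts bound only large changes, since the interval of Col1a1 ran from 0.211 to 2.42. The 6 genes of this class, with Dcn and Lum, summed to 17.1 CPM in each library.

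Among the other matrix genes, Fn1 (ENSMUSG00000026193, chromosome 1, 71585520 to 71653200, minus strand), which encodes fibronectin, was the one called lower. It had 101 reads in WT and 32 in Exon2KO, or 6.44 and 2.00 CPM, a ratio of 0.311 (0.202 to 0.467). Sparc, a collagen-binding glycoprotein, had 138 and 180 reads (1.28, 1.02 to 1.61) and was not called. Fbln1, which encodes the matrix protein fibulin 1, had 20 and 14 reads. The collagen VI genes were split without a call, Col6a1 with 7 and 13 reads and Col6a2 with 21 and 10.

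The 4 basement membrane genes gave 0 calls, beside 13.8% called either way over all genes tested. Their summed reads were 71 in WT and 58 in Exon2KO (0.802, 0.557 to 1.15). Col4a1 and Col4a2, the chains of the ubiquitous type IV collagen, are transcribed away from each other on chromosome 8, with 22 bases in common at their starts. Col4a1 had 29 reads in WT and 23 in Exon2KO, and Col4a2 had 7 and 11. Nid1, which links laminin to type IV collagen, had 24 and 20 reads, and Lama4, a laminin chain of vessels, had 11 and 4 (0.357, 0.0829 to 1.20). The 10 further basement membrane genes included Lamc1, a laminin chain that stood at 89.6 and 107.6 CPM without a call, and Agrn at 8.22 and 8.94 CPM. In that list Sparcl1, a relative of Sparc, was called higher (21 and 62 reads, log2 ratio 1.45, 0.80 to 2.32) and Col18a1 lower (60 and 23 reads, -1.34, -2.17 to -0.69). Both were no longer called at a BCV of 0.2.

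Both receptors for platelet-derived growth factor were below the read minimum. Pdgfra, a marker of fibroblasts, had 7 reads in WT and 1 in Exon2KO, giving a ratio of 0.140 with an interval from 0.00311 to 1.09. Pdgfrb, a marker of pericytes and fibroblasts, had 0 and 7 reads, with a lower 95% limit of 1.41 on the ratio. Of 20 further fibroblast and fibrillar matrix genes, 13 were tested, and the median log2 ratio was 0.07. Of the 13, 1 was called higher and 1 lower, beside 7.20% and 6.61% of all genes tested. Lox, the enzyme that cross-links collagen, was called higher with 0 and 12 reads (lower 95% limit of the ratio 2.73), and Ccdc80 was called lower with 15 and 0 reads (upper 95% limit of the ratio 0.274). The genes of that list with the most reads, Timp3 (73 and 106 reads) and Serping1 (75 and 77 reads), were not called.

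Thy1 and Vim belong to fibroblasts and to T cells alike. Thy1 (ENSMUSG00000032011, chromosome 9, 44043384 to 44048579, plus strand), the surface glycoprotein CD90, had 501 reads in WT and 1057 in Exon2KO, or 31.9 and 66.1 CPM, a ratio of 2.07 (1.86 to 2.31), and was called higher. Cd3e, a subunit of the T cell receptor complex, had 5154 and 5262 reads, and the ratio of Thy1 was 2.07 times that of Cd3e (1.84 to 2.32), a pair chosen after the values were seen. Vim, which encodes the intermediate filament vimentin, had 3320 and 3614 reads, or 212 and 226 CPM. Its ratio of 1.07 (1.02 to 1.12) left it uncalled. Per length, Vim was the most abundant of the 34 genes in both libraries, at 44.4 and 47.9 FPKM (reads per length of gene and size of library, as the authors deposited them), at percentile 94.2 and 94.7 of the loci with a read in either library. Thy1 stood at 10.6 and 22.2 FPKM and Pecam1 at 9.34 and 8.42 FPKM.

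Of the 34 genes, 27 stayed below 1 FPKM in both libraries and 7 exceeded it in both. After Vim, Thy1 and Pecam1, these were Lyve1 (4.52 FPKM in WT and 2.35 in Exon2KO), Acta2 (2.49 and 3.42), Sparc (2.31 and 2.99) and Dcn (2.00 and 2.03). Col1a1 and Col1a2, by contrast, were below 0.1 FPKM in both.

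The smooth muscle genes went in both directions. Myh11 (ENSMUSG00000018830, chromosome 16, 14194535 to 14291372, minus strand), the smooth muscle myosin heavy chain, had 5 reads in WT and 28 in Exon2KO, or 0.319 and 1.75 CPM, a ratio of 5.50 (2.10 to 18.2), and was called higher. Des (ENSMUSG00000026208, chromosome 1, 75360329 to 75368579, plus strand), which encodes the muscle intermediate filament desmin, had 20 and 7 reads (0.344, 0.123 to 0.846) and was called lower, a call that was lost when libraries were scaled by their totals or when no read minimum was set. Acta2, the vascular and myofibroblast form of smooth muscle actin, had 70 and 97 reads (1.36, 0.990 to 1.88) and was not called. Tagln, an actin-binding protein of smooth muscle, had 0 and 4 reads, with a lower 95% limit of 0.648 on the ratio, and Cnn1, smooth muscle calponin, had 0 and 1, so neither differed beyond counting error. The ratio of Myh11 was 15.03 times that of Des (3.85 to 71.6), a pair chosen after the values were seen. Summed, the 5 genes went from 95 to 137 reads (1.42, 1.08 to 1.86). Without Acta2 the log2 ratio of the sum was 0.65, with an interval from -0.11 to 1.43 that included 0.

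Among 12 further smooth muscle genes, 10 were tested, and the median log2 ratio was -0.47. Of the 10, 3 were called higher and 2 lower, beside 7.20% and 6.61% of all genes tested. Actg2, the smooth muscle actin of the gut wall, went from 66 to 3 reads and was called lower, at a log2 ratio of -3.79 with an interval from -6.80 to -2.88. The ratio of Acta2 was 30.1 times that of Actg2 (9.27 to 156), a pair also chosen after the values were seen. Myl9, Tpm2 and Cald1, which regulate or form contractile filaments, were called higher with 31 and 80, 9 and 26, and 23 and 54 reads, but all 3 were no longer called at a BCV of 0.2. Hspb1, a small heat shock protein that is not restricted to muscle, was called lower with 535 and 224 reads. Cnn2 and Csrp1, which had the most reads of this list (4958 and 3672, 1376 and 937), were not called.

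**Figure D4:**
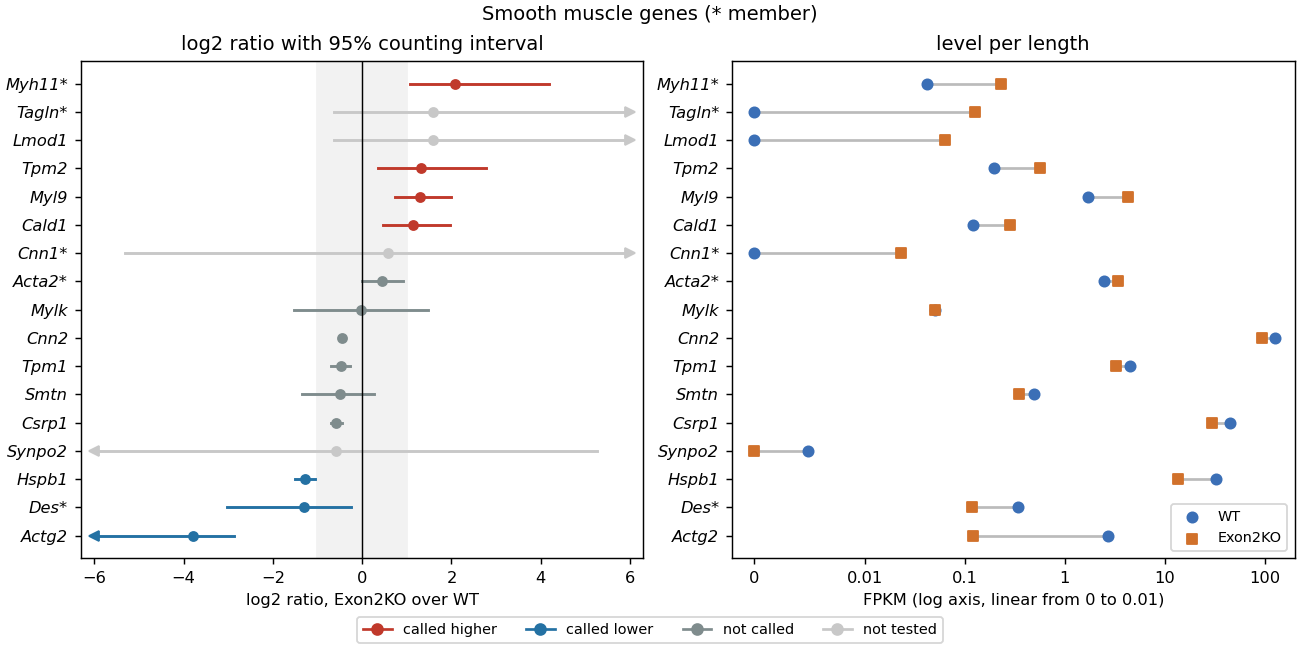
Smooth muscle genes, with an asterisk on the listed members: log2 ratio of Exon2KO over WT with 95% counting intervals (left) and FPKM in each library on a log axis that is linear from 0 to 0.01 (right). Myh11, Tpm2, Myl9 and Cald1 were called higher, and Actg2, Des and Hspb1 lower.

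Genes that modify and bind collagen were taken as further lists, beside 13.8% called either way over all genes tested. Of 12 collagen processing enzymes, 11 were tested and 0 were called, with a median log2 ratio of 0.05. P4hb and P4ha1, subunits of the prolyl hydroxylase that stabilises the collagen helix, stood at 205 and 190 CPM and at 90.3 and 86.9 CPM. Of 11 matrix receptors, 1 was called, Ddr1, a collagen receptor of epithelial cells, with 60 reads in WT and 140 in Exon2KO, a call that a BCV of 0.2 ended. Itgav (3755 and 3038 reads) and Cd44 (2816 and 3379 reads), which T cells also use to bind matrix, were not called.

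Of 8 colon epithelial genes, 6 were called higher in Exon2KO and 0 lower, beside 7.20% and 6.61% of all genes tested. The summed level of the 8 went from 78.5 CPM in WT to 275 CPM in Exon2KO. Krt8 had 160 and 1604 reads, Krt19 81 and 1430, Cldn7 38 and 353, Krt18 118 and 277, Vil1 9 and 56, and Cdh1 13 and 30. With an assumed BCV of 0.2, Krt18 and Cdh1 lost their call. Epcam, with 782 and 609 reads, went the other way (ratio 0.764, 0.687 to 0.851) and was not called. Krt20 (31 and 36) was not called either. The part of epithelial RNA, or of other cells carried through the sort, in the differences of the vessel and muscle genes was not tested. B and plasma cell genes went both ways: Sdc1, a proteoglycan of plasma cells and of epithelium, was called higher (510 and 1213 reads, a call that a BCV of 0.2 ended), and the B cell gene Ms4a1 (47 and 10 reads) lower. Jchain (7652 and 7113 CPM) and Xbp1 (666 and 744 CPM) were not called. Their part in the stromal differences was not tested either.

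Exact sequence in common with other genes was rare, with none in 24 of the 34 genes. In 50-base windows of the longest coding transcript, Tagln had 48.3% of windows in common with transcripts of other genes, chiefly the antisense gene Gm48529, which had 11 reads in WT and 15 in Exon2KO. The share was 5.81% for Des and 3.67% for Nid1. It was 0.353% for Acta2, and Actg2 had no such window. Cdh5, Tek, Vwf, Flt1, Lyve1, Lum and Dcn had no shared window either. Plvap overlaps Gtpbp3 on the opposite strand over 1819 bases, and Prox1 overlaps the antisense gene Gm28172, which had 6 and 0 reads. Without a stated strand setting the reads of such pairs cannot be told apart.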

How the data were processed

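RNA from female colon lamina propria Treg cells came from a Qiagen column kit and entered NEBNext Ultra libraries, per the labels' protocols. The submitters' processing notes name HISAT2 2.0.5, StringTie 1.3.3b, featureCounts 1.5.0-p3, DESeq2 1.16.1 and build mm10, without their roles. The table deposited by the authors gives unscaled counts of reads and FPKM values for both libraries. Counts were the input to each comparison, and the deposited FPKM served only to compare levels between genes.

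Libraries were scaled with TMM factors (0.964 for WT, 1.04 for Exon2KO) in edgeR 4.0.16 under R 4.3.3. A 2-sided exact binomial test (smaller tail doubled) compared each gene whose reads summed to at least 10, with Benjamini-Hochberg adjustment over all of them. It compares the libraries, not the genotypes. Log2 ratios use a prior count of 2. Ratios and intervals (95%, Clopper-Pearson) use none. A count of 0 was set to 3 reads for bounds (0.191 CPM in WT, 0.188 in Exon2KO). The binomial script was tested on simulated data. Python 3.11.15, scipy 1.17.1 and statsmodels 0.14.6 were used.

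The 34 genes and all further lists were chosen with earlier results of these data known. All 34 genes are named, and of each further list the 2 genes with the most reads and any called gene. Some genes of the further lists are not reported here. Promoters are from RefSeq, and shared windows from GENCODE M21. Alternatives in scaling, read minimum, fold, prior count and assumed spread were tried.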

Additional observations from a re-analysis of the deposited data

How the results depend on the processing

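No paired analysis was possible because each genotype has 1 library, which also leaves no library to leave out. Scaling by library totals raised the median log2 ratio of all genes from 0.0035 to 0.1085, left muscle genes with 0 lower calls, moved the fibroblast and matrix sum from 0.21 to 0.32, and turned the sign of Jchain (0.00053) and P4ha1 (0.049), both uncalled. Under that scaling Mmrn1 also lost its call. Size factors from DESeq2 1.42.0, upper quartile factors, and TMM computed after removing haemoglobin, immunoglobulin and mitochondrial genes changed no call and no sign among the 34 genes. Without a read minimum, muscle genes had 0 lower calls. With at least 50 reads, 2 of the 34 genes were called higher, with 1 endothelial, 1 fibroblast and matrix and 0 muscle genes among them, muscle genes had 0 lower calls, and the median of the members tested was -0.16, since fewer genes were tested. Of the genes named, a prior count of 0.5 changed no call and one of 5 ended that of Cdh1 (0.94). A threshold of 1.5-fold gave 2 lower endothelial calls. A threshold of 4-fold left 3 of the 8 higher calls of the further endothelial genes and 0 lower. Of the 34 genes it left 4 higher and 1 lower, with 0 fibroblast and matrix calls either way and 0 lower muscle calls. An assumed BCV of 0.2 left 5 higher and 2 lower, with 0 higher fibroblast and matrix calls and 0 lower muscle calls, and of the further endothelial genes it left 5 of the 8 higher calls, while both further lymphatic calls (Mmrn1 and Flt4) were lost. With a BCV of 0.4, the 34 genes, each of their groups and the further endothelial genes had 0 calls in either direction, while Actg2 and Ikzf2 (lower) and Krt8 and Krt19 (higher) kept theirs, against 0.495% higher and 0.449% lower over all genes tested. Leaving Pecam1 out of the endothelial sum (-0.31) or Acta2 out of the muscle sum (0.65), both chosen after the data were seen, kept their sign, but the interval of the muscle sum (-0.11 to 1.43) then included 0. Depth limits genes with 0 reads in a library to bounds, and genes with few reads to intervals that span several-fold.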

Other observations

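Pericyte genes were near the limit of detection. Rgs5, a regulator of G protein signalling in pericytes, had 12 reads in WT and 2 in Exon2KO and was called lower (log2 ratio -1.83, -5.81 to -0.44), a call that a BCV of 0.2 ended. Notch3 had 15 and 10 reads and Kcnj8 15 and 8, both uncalled, and Abcc9, Cspg4 and Higd1b had 0 in both libraries, which allows up to 0.191 CPM in WT and 0.188 CPM in Exon2KO. Pdgfrb, another pericyte marker, had 0 reads in WT and 7 in Exon2KO, the opposite direction from Rgs5. Platelet genes were uneven: Pf4 had 0 and 2 reads and Ppbp 0 in both, while Gp9 had 45 and 48 and Itga2b 13 and 8, without a call. Vwf and Pecam1 are platelet genes too, and the part of platelet RNA in their reads was not tested.

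Within a library, pairs of genes were compared per deposited gene length. For some genes that length far exceeds the longest coding transcript (Col1a2 12426 against 5348 bases, Dcn 5838 against 1758). The ratios below depend on the length used, and their intervals cover counting error alone. The level of Col4a1 was 3.67 times that of Col4a2 in WT (95% interval 1.57 to 9.94) and 1.85 times in Exon2KO (0.868 to 4.21). Col1a1 was at 1.26 times Col1a2 in WT (0.448 to 3.36) and 0.668 times in Exon2KO (0.216 to 1.78), although type I collagen protein holds more of the first chain than of the second. Dcn exceeded Col3a1 per length by 6.45 times in WT (4.67 to 9.05) and 10.6 times in Exon2KO (7.18 to 16.1), and Lyve1 exceeded Prox1 by 11.7 times (8.59 to 16.3) and 34.8 times (17.7 to 78.2). These pairs were chosen after the values were seen.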
